A study of Mus musculus with 59 samples.

Results

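Ceacam12 and Gm5155 are neighbouring genes on mouse chromosome 7, and both were followed here through every peak that the deposited tables assign to them. They were chosen by their H3K27ac values in these same libraries, because H3K27ac, the acetylated histone found at enhancers and promoters in use, was nearly absent there in young uterus and higher at later ages. Each gene carried 1 H3K27ac peak, so that 2 of the 54362 H3K27ac peaks were examined. Neither gene carried a peak of H3K4me3, a mark of active promoters, among 25835. The levels of these 2 peaks by age are therefore given as a description, with no test against young.

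The series held 59 samples of uterus from C57/B6 mice, with both marks measured in the same 27 animals and 5 input libraries that were not used here. Young mice were 9 to 11 weeks old (n = 7). Aged group 1 was 28 to 36 weeks old (n = 4), aged group 2 was 42 to 48 weeks old (n = 6) and aged group 3 was 54 to 65 weeks old (n = 10). No other genotype, agent or treatment is named in the labels, and sex, cycle stage and breeding history are not given there. The material was a piece of frozen endometrial tissue, hence a mix of epithelium, stroma, vessels and immune cells, and chromatin came from a small aliquot of nuclei. In such bulk tissue, a different share of cells that carry a mark and a different amount of the mark per cell cannot be told apart.

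The H3K27ac libraries held 7604000 to 16945000 reads (median 11162000, to the nearest 1000), of which 32.3% to 48.7% fell in peaks. The H3K4me3 libraries held 6835000 to 48290000 reads (median 10022000). No library repeated another.

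CEACAM proteins are cell adhesion molecules of the immunoglobulin superfamily, named after the carcinoembryonic antigen. In rodents the family expanded together with the pregnancy-specific glycoproteins (Psg genes), and Ceacam12 belongs to a group of mouse genes known from trophoblast, the fetal epithelium of the placenta. Gm5155 is a gene model without a standard name, listed as protein-coding by RefSeq. Active mammalian promoters usually carry H3K4me3 together with H3K27ac, while H3K27ac without H3K4me3 is typical of active enhancers.

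1 RefSeq promoter window of each gene is shown because neither window held a peak of either mark, although both genes carried H3K27ac in their bodies. RefSeq lists 2 windows for Ceacam12, and only the first was examined for peaks and motifs. Each window runs from 250 bases before to 50 bases after its annotated start (GRCm38.p6, plus strand, chr7:18065679-18065978 for Ceacam12 and chr7:17871516-17871815 for Gm5155), and capitals mark the only matches to the motifs searched. For Gm5155 that start is not the gene start at 17871744 from which the peak distance below is counted.
Ceacam12: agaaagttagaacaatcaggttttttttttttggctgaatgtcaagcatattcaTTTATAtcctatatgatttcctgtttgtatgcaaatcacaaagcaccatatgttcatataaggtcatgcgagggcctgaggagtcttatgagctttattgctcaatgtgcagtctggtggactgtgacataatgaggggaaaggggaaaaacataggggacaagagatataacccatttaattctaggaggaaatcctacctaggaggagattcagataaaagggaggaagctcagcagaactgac
Gm5155: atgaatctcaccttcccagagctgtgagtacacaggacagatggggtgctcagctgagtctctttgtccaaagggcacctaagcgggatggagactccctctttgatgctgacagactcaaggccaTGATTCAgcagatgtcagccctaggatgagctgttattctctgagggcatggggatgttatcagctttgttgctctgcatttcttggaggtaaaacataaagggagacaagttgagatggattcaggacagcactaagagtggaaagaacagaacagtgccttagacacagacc

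The Ceacam12 window held 1 CpG and 39.3% G and C, and the Gm5155 window held 1 CpG and 48.7%. The medians over 32851 windows in the RefSeq table were 7 CpGs and 52.7%, and 14.1% of windows held 1 CpG or none. Both of these starts thus lay in CpG-poor sequence. A match to TATAAA, the motif called the TATA box, was read on the opposite strand at position −196 from the Ceacam12 start, and 13.6% of all windows held one. A match to TGANTCA (AP-1) began at position −124 from the annotated start of the Gm5155 window, a motif found in 7.81% of windows. No match to the palindromic oestrogen response element (0.07% of windows), to TGTTTAC (forkhead, 3.65%), TTCNNNGAA (STAT, 8.3%), AGGAAGT (ETS, 9.35%) or GGGCGG (GC box, 35.7%) was found on either strand of either window. None of the motifs overlapped in these windows, and a match is a description of the letters only.

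The H3K27ac peak of Ceacam12 (ENSMUSG00000030366) covered 942 bases at chr7:18073825-18074766 (GRCm38). It lay inside the gene (chr7:18065929-18077986, plus strand), 7896 bases after the start and 3220 bases before the end. The H3K27ac peak of Gm5155 (ENSMUSG00000078793) covered 2372 bases at chr7:17902149-17904520, inside the gene (chr7:17871744-17919043, plus strand), 30405 bases after the start and 14523 bases before the end. Whether the peaks lie in exons or introns was not examined. The peaks were 169.3 kb apart and each was the other's nearest H3K27ac peak.

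Both peaks stood alone in a long stretch without other peaks. They were the 2 H3K27ac peaks within 860.3 kb, while neighbouring H3K27ac peaks were 9.17 kb apart at the median over the genome. No H3K4me3 peak lay in that stretch, and the nearest was 326.9 kb from the Ceacam12 peak and 361.1 kb from the Gm5155 peak. Over all H3K27ac peaks the median distance to an H3K4me3 peak was 4.65 kb, 38.4% overlapped one, and 0.703% lay farther from one than the Ceacam12 peak did. The stretch holds 19 RefSeq genes, 9 of them protein-coding and 5 of those named Ceacam: Ceacam5, Ceacam14, Ceacam11, Ceacam13 and Ceacam12. Ceacam12 and Gm5155 were the 2 genes of the 19 with a peak of either mark.

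**Figure D1:**
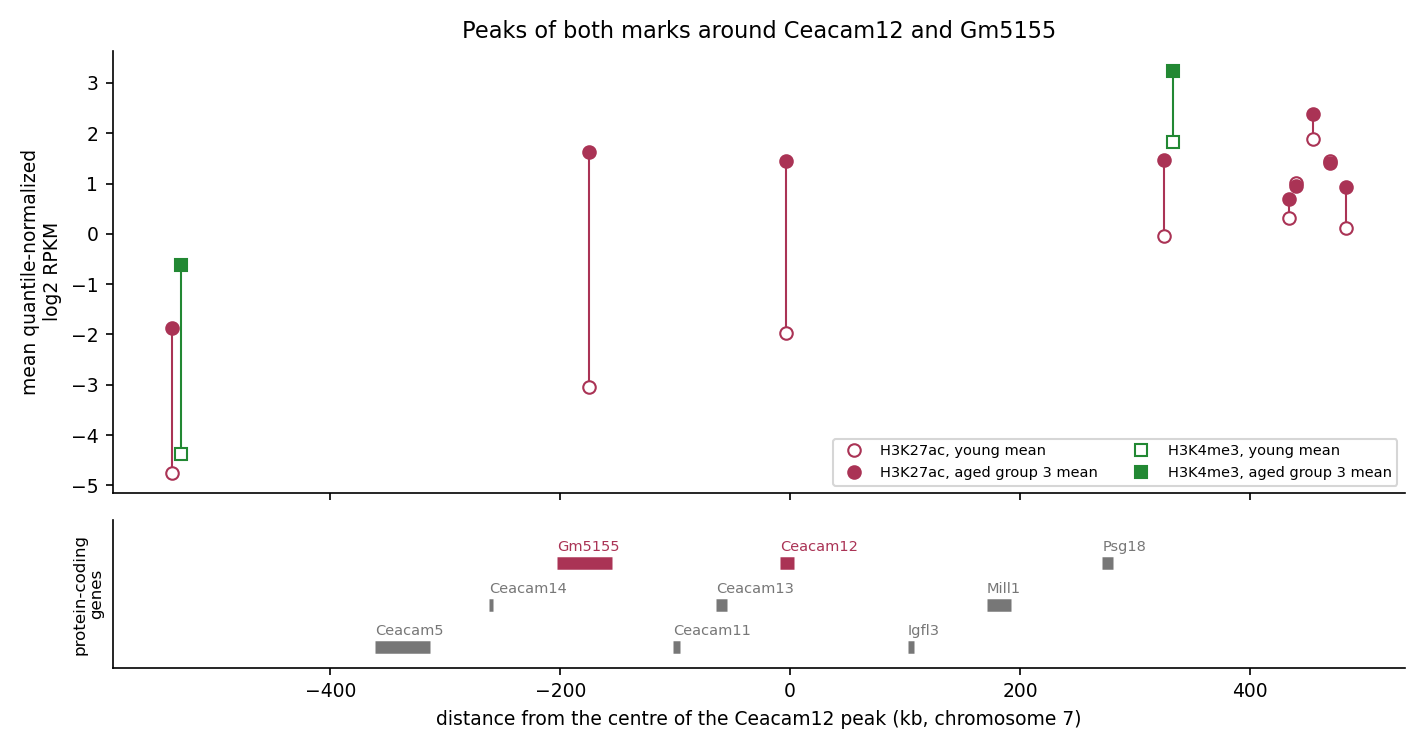
Group means of H3K27ac (circles) and H3K4me3 (squares) at peaks around Ceacam12, as quantile-normalized log2 RPKM, against distance from the centre of the Ceacam12 peak in kb; open symbols are young, filled symbols are aged group 3, and the lower panel shows the protein-coding genes of the stretch without other peaks. The Gm5155 and Ceacam12 peaks rise from −3.04 and −1.98 in young to 1.63 and 1.44 in aged group 3, with no H3K4me3 symbol beside them.

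At Gm5155, H3K27ac was close to nothing in young uterus. The 7 young libraries held 1 to 11 reads in the peak (median 3), which is 0.115 to 1.02 RPM, reads scaled to a library of 1000000 reads (median 0.264). The highest were young replicates 4 and 5, with 11 and 7 reads, and the lowest was young replicate 6, with 1 read.

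In aged group 1 the Gm5155 peak held 67, 16, 38 and 44 reads in replicates 1 to 4, or 5.05, 1.53, 2.84 and 4.11 RPM. In aged group 2 it held 11 to 148 reads, or 1.36 to 14.9 RPM (median 3.32). In aged group 3 it held 21 to 212 reads, or 2.19 to 16 RPM (median 9.14). All 20 aged libraries lay above all 7 young libraries at this peak in normalized log2 RPKM (reads scaled for peak length and library total, then quantile-normalized), a separation seen at 8 peaks, 0.0147% of the 54354 tested. Since the peak was picked for this pattern, nothing is read from that share. Mean RPM values were 0.397 ± 0.328 (SD, n = 7) in young, 3.38 ± 1.53 (n = 4) in aged group 1, 5.04 ± 5.10 (n = 6) in aged group 2 and 9.23 ± 5.11 (n = 10) in aged group 3. The ratios of these means to young were 8.52, 12.7 and 23.2.

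At Ceacam12 the young libraries did not behave alike. Young replicates 1, 2, 3 and 7 held 1, 0, 1 and 1 reads, and the 0 of replicate 2 allows up to 0.309 RPM (3 reads, counting error only). Young replicates 4, 5 and 6 held 15, 5 and 14 reads, or 1.4, 0.473 and 1.61 RPM. The near absence of the mark therefore describes 4 of the 7 young animals. Young replicate 6 had the highest Ceacam12 value of its group and the lowest Gm5155 value.

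In aged group 1 the Ceacam12 peak held 13, 26, 32 and 16 reads in replicates 1 to 4, or 0.98, 2.49, 2.39 and 1.49 RPM. Aged group 2 held 15 to 33 reads, or 1.34 to 3.12 RPM (median 2.18). Aged group 3 held 11 to 49 reads, or 1.15 to 3.97 RPM (median 2.83). The aged groups overlapped with young at this peak: 2 of 4, 4 of 6 and 8 of 10 libraries lay above every young library in normalized log2 RPKM. Separation of all libraries of a group from young was seen at 0.339%, 0.206% and 0.35% of peaks for aged groups 1, 2 and 3. Mean RPM values were 0.533 ± 0.682 (SD, n = 7) in young, 1.84 ± 0.729 (n = 4), 2.23 ± 0.725 (n = 6) and 2.80 ± 0.955 (n = 10), and the ratios to young were 3.45, 4.19 and 5.25.

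**Figure D2:**
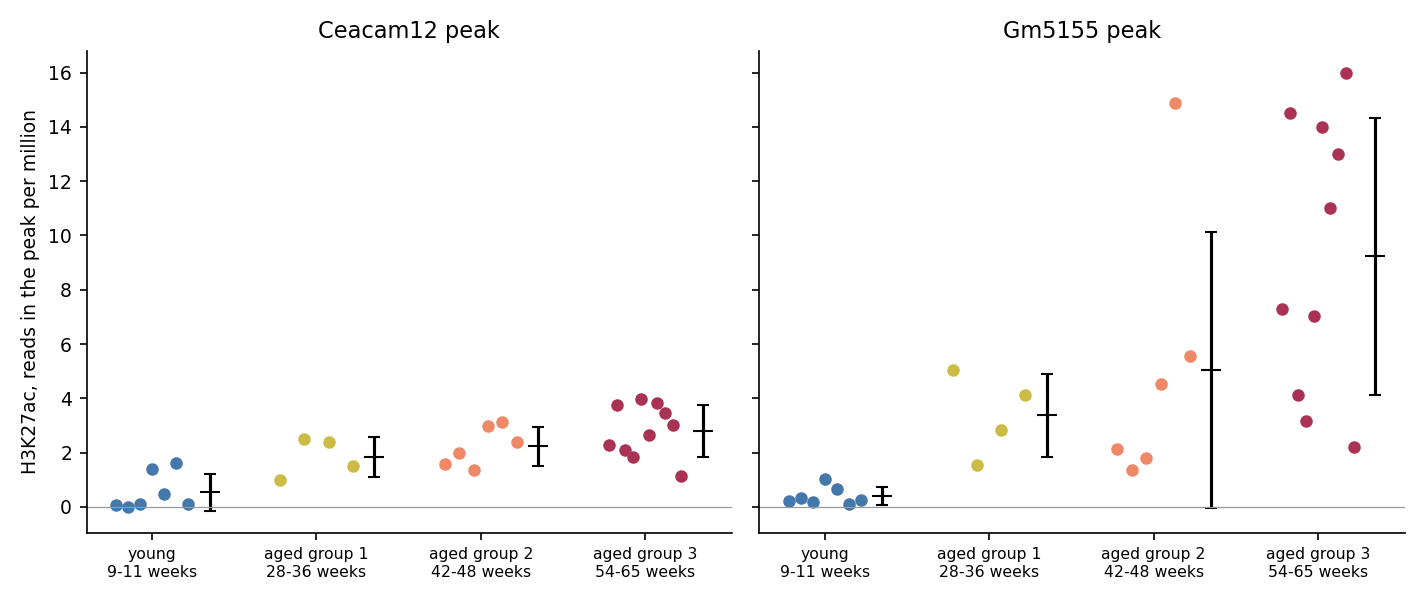
H3K27ac of each library in RPM (labelled in full on the axis) in the Ceacam12 peak (left) and the Gm5155 peak (right) by age group; dots are animals in replicate order, bars are the group mean ± SD. At Gm5155 the young dots stay at or below 1.02 and aged group 3 spreads from 2.19 to 16, while at Ceacam12 young replicates 4 and 6 reach 1.4 and 1.61, inside the aged range.

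On the normalized log2 scale, which is per peak length and so allows the peaks to be set side by side, mean H3K27ac at Gm5155 was −3.04 ± 1.04 (SD) in young, 0.05 ± 0.96 in aged group 1, 0.37 ± 1.39 in aged group 2 and 1.63 ± 1.12 in aged group 3. At Ceacam12 the means were −1.98 ± 1.92, 0.58 ± 0.70, 1.12 ± 0.54 and 1.44 ± 0.63. In young, 0.445% of H3K27ac peaks had a lower mean than Gm5155 and 0.57% a lower mean than Ceacam12. In aged group 3 these shares were 74.1% and 62.9%. The peaks thus went from the bottom of the range in young to above its middle in aged group 3.

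The differences from young on this scale were 3.09 ± 0.66 (SE), 3.42 ± 0.59 and 4.68 ± 0.52 for Gm5155 in aged groups 1, 2 and 3, the highest of 54354 peaks in each. For Ceacam12 they were 2.56 ± 0.64, 3.10 ± 0.57 and 3.42 ± 0.50, in places 2, 2 and 5. The 3 aged groups share the young controls, and the peaks were picked for these differences, so the places are a description.

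On the log2 scale most of the difference from young was already present at 28 to 36 weeks, while in RPM the Gm5155 mean was 3.38 in aged group 1 and 9.23 in aged group 3. At Ceacam12, aged group 2 minus aged group 1 was 0.54 ± 0.66, aged group 3 minus aged group 2 was 0.32 ± 0.53 and aged group 3 minus aged group 1 was 0.86 ± 0.60. At Gm5155 the same differences were 0.32 ± 0.68, 1.26 ± 0.55 and 1.58 ± 0.63. Of the differences between neighbouring aged groups at the peaks, that of aged group 3 minus aged group 2 at Gm5155 was the largest. The rule covers a rise at later ages, so these values carry no p.

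**Figure D3:**
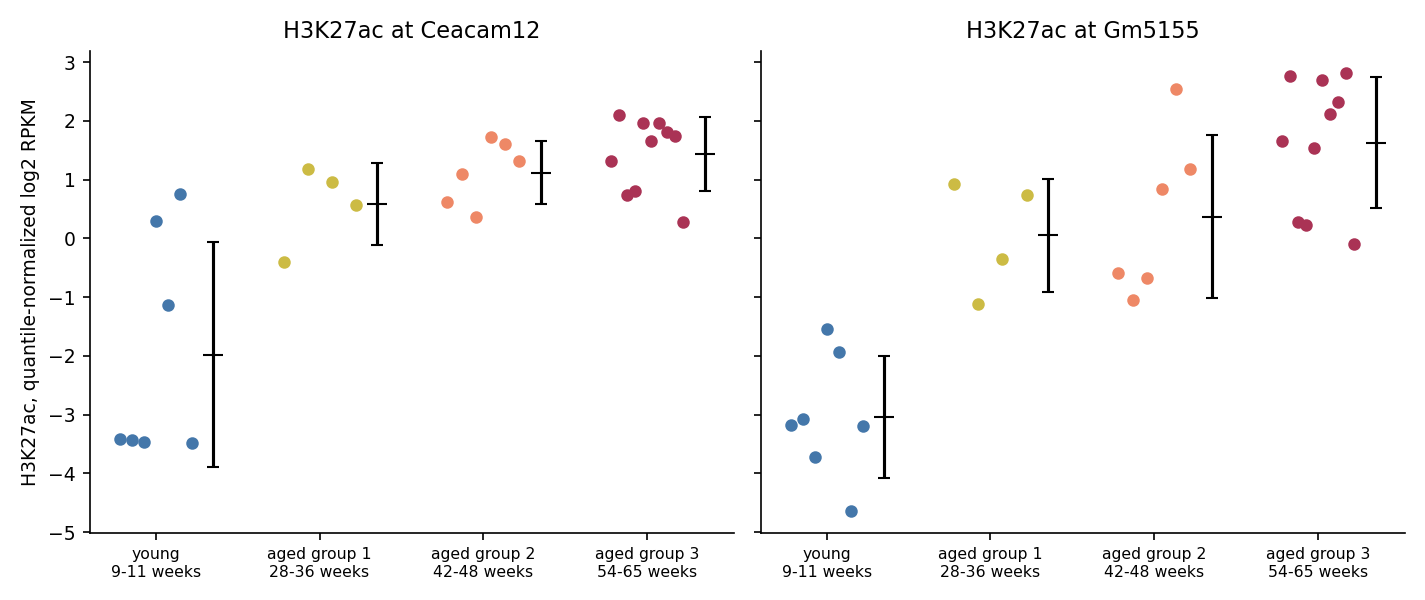
H3K27ac at Ceacam12 (left) and Gm5155 (right) as quantile-normalized log2 RPKM by age group; dots are animals in replicate order, bars are the group mean ± SD. Young Ceacam12 values fall in a low set near −3.4 and 3 higher values of −1.14, 0.30 and 0.76, and in aged group 3 the same 3 animals (replicates 3, 4 and 10) are lowest in both panels.

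The peaks did not move in step within every group. The within-library difference, Gm5155 minus Ceacam12, was −1.06 ± 2.07 (SD) in young, −0.53 ± 1.60 in aged group 1, −0.75 ± 1.05 in aged group 2 and 0.20 ± 0.63 in aged group 3. It was widest in young, from −5.41 in replicate 6 to 0.36, and narrowest in aged group 3, from −0.57 to 1.07. Gm5155 was the higher of the pair in 3 of 7, 2 of 4, 1 of 6 and 6 of 10 libraries of the groups in order of age.

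In aged group 3, replicate 10 was lowest at both peaks, at 0.28 for Ceacam12 and −0.10 for Gm5155. Replicates 3 and 4 followed at 0.73 and 0.80 for Ceacam12 and 0.27 and 0.23 for Gm5155. The other 7 animals lay between 1.31 and 2.10 at Ceacam12 and between 1.54 and 2.82 at Gm5155, with no overlap. In aged group 2, replicate 5 stood highest at Gm5155, at 2.55, with 148 reads.

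The labels name mice by number, and young mice fell almost wholly in the numbers under 100, so the values were also taken within each series of numbers. Under 100, the 3 libraries of aged group 3 had means of 1.41 at Ceacam12 and 1.55 at Gm5155, against −1.74 and −3.04 in 6 young libraries. Every aged library was above every young one at both peaks, but at Ceacam12 only by 0.80 against 0.76. Among the higher numbers there was 1 young library, at −3.43 and −3.07, below all 17 aged libraries, of which the lowest were −0.40 and −1.12. Libraries also carry a code, and 5 of its leading digits held both young and aged group 3 libraries. Within these digits aged group 3 lay above young in 5 of 5 at Gm5155 and in 4 of 5 at Ceacam12. Digits 2, 3 and 4 held 1 young and 1 aged group 3 library each, digit 5 held 1 and 2, and digit 7 held 3 and 1. The peaks were picked for higher values than young, and the share of all peaks ordered this way was not computed, so nothing is read from these orders. The exception was digit 7, where aged group 3 replicate 10 (0.28) lay below young replicate 6 (0.76). What the digit stands for is not stated in the labels.

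Both marks at genes typical of the cell types of the uterus differed between animals and with age. Marker genes with a peak at their start were compared between aged group 3 and young in the fit across all peaks (limma, Benjamini-Hochberg adjustment), in which 14.4% of H3K27ac peaks were higher and 29.3% differed in either direction. Of 25 epithelial genes 17 were measured, and 9 rose and 0 fell, among them Prom1, a surface protein of epithelial cells (difference 1.10 ± 0.19 SE, adjusted p = 0.0011), and the tight junction gene Cldn4 (0.57 ± 0.13, adjusted p = 0.00399). Of 19 stromal genes 12 were measured, and 0 rose and 10 fell, among them Cdh11, a mesenchymal cadherin (−1.20 ± 0.27, adjusted p = 0.00429). Leukocyte genes rose in 3 of 9 and fell in 0, led by the lysosomal membrane gene Laptm5 (1.10 ± 0.20, adjusted p = 0.00132). Dock2 (−0.50 ± 0.34, adjusted p = 0.247) and Coro1a (−0.19 ± 0.28, adjusted p = 0.62) of that list were lower without passing. The median difference was 0.36 for the epithelial, −0.89 for the stromal and 0.30 for the leukocyte list, against −0.06 over all peaks. For H3K4me3, 14.2% of all peaks were higher and 30.7% differed in either direction. There 16 of 19 epithelial genes rose and 0 fell (median 0.60), and 0 of 12 stromal genes rose and 10 fell (median −0.91). Of 11 leukocyte genes 4 rose and 0 fell, but their median was −0.23, against −0.02 over all peaks, so the marks differed for this list.

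The summed level of the epithelial list was 46.7 to 90.7 RPKM in young and 40.7 to 95.4 in aged group 3, that of the stromal list 40.3 to 70.1 and 18.2 to 64.2, and that of the leukocyte list 12.4 to 20.2 and 17.8 to 27.8. In aged group 1 the leukocyte sum reached 17.2 to 53.9. Smooth muscle genes rose in 0 and fell in 3 of 8 (sums 21.4 to 30.7 and 9.39 to 26.8 RPKM), endothelial genes rose in 3 and fell in 1 of 8 (16.4 to 24.5 and 20.7 to 28.4), and of the neutrophil list only Mmp9 was measured (difference −0.22 ± 0.24, adjusted p = 0.493). Of 16 trophoblast genes none had an H3K27ac peak at its start, and 1 had an H3K4me3 peak, Ascl2, a trophoblast transcription factor that other tissues also use (0.04 ± 0.13, adjusted p = 0.855). The placental hormone genes Prl3d1 and Prl3b1 and the trophoblast genes Tpbpa and Gcm1 had no such peak of either mark. Stromal Hoxa10 and Hand2 were likewise not measured by this rule.

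A score was formed in each library as the mean log2 level of the 17 epithelial genes minus that of the 12 stromal genes. It ran from −1.01 to 0.25 in young, −0.49 to −0.06 in aged group 1, −0.67 to 1.07 in aged group 2 and −1.19 to 1.71 in aged group 3. The highest young scores were those of replicates 4 and 5, the young libraries with the most Gm5155 reads. The aged group 1 scores lay within the young range but above those of 5 of the 7 young libraries (median −0.28 against −0.84 in young). Young replicates 4 and 5, whose scores of 0.25 and 0.07 were above all of aged group 1, held less H3K27ac at Gm5155 (−1.55 and −1.93) than each of its 4 libraries. At Ceacam12 this order did not hold throughout. There young replicate 4 (0.30) lay above aged group 1 replicate 1 (−0.40), and young replicate 5 (−1.14) lay below all of aged group 1. Aged group 3 replicate 10 had the lowest score of the 27 libraries. Its H3K27ac at Gm5155, −0.10, was above the young maximum of −1.55, and at Ceacam12 its 0.28 lay below young replicates 4 (0.30) and 6 (0.76). Every aged library lay above every young one at Gm5155 whatever its score, and the peaks were picked for higher values than young. Nothing is therefore read from these orders.

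With the score as a covariate in the fit, an alternative chosen after seeing the data, the Gm5155 differences from young were 2.65 ± 0.43 (SE), 2.63 ± 0.40 and 2.87 ± 0.44 for aged groups 1, 2 and 3. Those of Ceacam12 were 2.29 ± 0.56, 2.62 ± 0.52 and 2.31 ± 0.57. For aged group 3 the Gm5155 value fell from 4.68 to 2.87 and the Ceacam12 value from 3.42 to 2.31, and the 3 aged groups then stood at nearly the same distance from young. Over all H3K27ac peaks, 0.0865% passed the adjusted threshold for aged group 3 in that fit, against 29.3% without the covariate. The peaks were picked for their differences from young, so what remains of these differences is a description. The score itself differed with age (median −0.84 in young, 1.07 in aged group 3), so this fit cannot tell age and tissue make-up apart.

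Within aged group 3 the score and the members' H3K27ac varied together across the 10 animals, a comparison that the choice of the genes by age did not use. The share of all peaks that followed the score as closely was not computed, so the relation is not read as particular to these peaks. In these libraries Gm5155 was in place 1134 among the peaks most like Ceacam12, and Ceacam12 in place 3359 among those most like Gm5155. For Gm5155, Pearson's r was 0.91 (permutation p = 0.00027, adjusted over 5 relations 0.00045) and Spearman's rho was 0.87 (permutation p = 0.00205). For Ceacam12, r was 0.91 (permutation p = 0.00094, adjusted 0.00117) and rho was 0.64 (permutation p = 0.0541). Without replicates 4 and 10, the animals farthest from the median score, r was 0.86 (exact permutation p = 0.0119) and 0.78 (exact permutation p = 0.0413).

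The same held with a score from the H3K4me3 libraries of the same animals, formed from 19 epithelial and 12 stromal genes and thus independent of the H3K27ac libraries. There r was 0.95 for Gm5155 (permutation p = 8e-05, adjusted 0.0004; rho 0.85, permutation p = 0.00295) and 0.95 for Ceacam12 (permutation p = 0.00026, adjusted 0.00045; rho 0.79, permutation p = 0.00889). Without replicates 4 and 10 it was 0.94 (exact permutation p = 0.00241) and 0.87 (exact permutation p = 0.0125). The peaks also varied with each other (r 0.89, permutation p = 0.00173, adjusted 0.00173; rho 0.65, permutation p = 0.0496; without replicates 4 and 10 r 0.77, exact permutation p = 0.0363). These 3 relations were added after the data were seen. All tests were two-sided.

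These relations rested in large part on the split between replicates 3, 4 and 10 and the other 7 animals, whose H3K27ac score was above 0.5. Among those 7, r with the H3K27ac score was 0.55 for Gm5155 (exact permutation p = 0.196) and 0.24 for Ceacam12 (exact permutation p = 0.593). With the H3K4me3 score it was 0.80 for Gm5155 (exact permutation p = 0.0331, adjusted over the 5 relations 0.165) and 0.57 for Ceacam12 (exact permutation p = 0.181), and between the peaks it was 0.26 (exact permutation p = 0.605). Replicates 4 and 10 were also the shallowest libraries of the group, with 7604000 and 9598000 reads, while replicate 3 held 13334000. The part of depth in the relation was not tested.

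**Figure D4:**
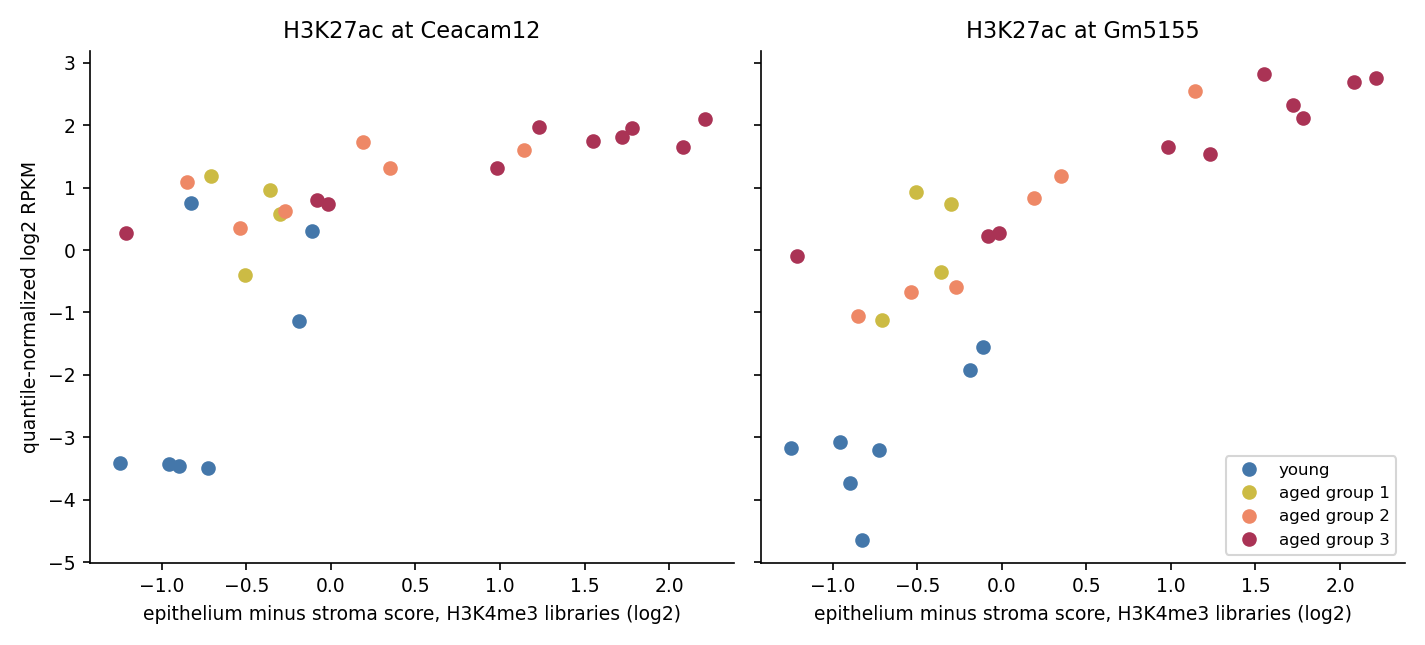
H3K27ac at Ceacam12 (left) and Gm5155 (right), as quantile-normalized log2 RPKM, against the epithelium minus stroma score of the H3K4me3 libraries of the same 27 animals; each dot is an animal, coloured by age group. In aged group 3, replicate 10 sits at a score of −1.21, replicates 3 and 4 near 0, and the other 7 between 0.98 and 2.21. At scores below 0 the aged dots lie above the young ones at Gm5155, while at Ceacam12 young and aged dots overlap. The peaks were picked for higher values than young, so nothing is read from this order.

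Oestrogen drives growth and secretion of the uterine epithelium, and genes known to respond to it there rose in 9 of 17 measured and fell in 0 for H3K27ac (aged group 3 against young, limma, 14.4% of all peaks higher). The smallest p-values were those of Padi1, a protein-citrullinating enzyme (1.44 ± 0.30 SE, adjusted p = 0.00273), the secreted iron-binding protein gene Ltf (1.72 ± 0.39, adjusted p = 0.00434), the water channel gene Aqp5 (1.97 ± 0.49, adjusted p = 0.00658) and Greb1 (1.07 ± 0.28, adjusted p = 0.00797). For H3K4me3, 9 of 17 rose and 1 fell, where 14.2% of all H3K4me3 peaks were higher and 30.7% differed in either direction. The list shares Ltf, Lcn2, Wnt7a and Muc1 with the epithelial list, whose rise in H3K27ac stands beside it, and the part of tissue make-up in these counts was not tested.

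The other members of the family mostly carried no peak in this tissue. Of 15 other Ceacam genes, 2 had an H3K27ac peak (Ceacam3 and Ceacam19) and 2 an H3K4me3 peak (Ceacam9 and Ceacam19). Of 14 Psg genes, which encode the pregnancy-specific glycoproteins secreted by trophoblast, 3 had an H3K27ac peak (Psg25, Psg27 and Psg17) and 1 an H3K4me3 peak (Psg17). Neighbours were taken around the Ceacam12 peak only, the member peak with the higher mean. Together with the genes within 500 kb of that peak (Gm45104, Gm4880, Psg25, Gm26062 and Psg27), this gave 9 H3K27ac and 4 H3K4me3 peaks to compare with young.

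For H3K27ac in aged group 3, 4 of these 9 peaks rose and 0 fell, at a background of 14.4% higher, and the median difference was 0.69 against −0.06 over all peaks. The peak in Ceacam3 (chr7:17157617-17159556) held 7 to 22 reads (median 10) in young, 32 to 77 (59.5) in aged group 1, 20 to 113 (57) in aged group 2 and 15 to 167 (34) in aged group 3. Its difference in aged group 3 was 1.91 ± 0.41 (SE, adjusted p = 0.00338), with 6 of 10 libraries above every young one. Its level in aged groups 1 and 2, at 1.98 ± 0.52 and 2.19 ± 0.46 above young (adjusted p = 1 and 0.145), was as far from young but did not pass the test.

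The peak 812 bases downstream of the gene model Gm45104 (chr7:18401677-18404544), the first peak beyond Ceacam12, held 17 to 65 reads (median 31) in young and 41 to 132 (median 110.5) in aged group 3. It rose by 1.50 ± 0.24 (SE, adjusted p = 0.000447), with 9 of 10 libraries above every young one. The peak in Psg25 (0.49 ± 0.17, adjusted p = 0.035) and that in Psg27 (0.84 ± 0.31, adjusted p = 0.0437) rose by less. The values that did not pass were 0.76 ± 0.41 for Psg17 (adjusted p = 0.146), 0.69 ± 0.28 for Ceacam19 (adjusted p = 0.0589), 0.37 ± 0.35 for Gm4880 (adjusted p = 0.416), −0.03 ± 0.23 for Gm26062 (adjusted p = 0.92) and −0.05 ± 0.46 for a second Psg25 peak, upstream of the gene (adjusted p = 0.942).

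In aged groups 1 and 2, 0 of the 9 peaks passed in limma, 2 and 2 had an unadjusted p under 0.05, and the backgrounds were 0% and 0.011% higher. The calls of Psg25 and Psg27 were lost when 1 of several libraries was left out, which took the count to between 2 and 5, and with the score as a covariate 0 of 9 passed. In that fit Ceacam3 stood at 2.27 (adjusted p = 0.0887) and Gm45104 at 0.95 (adjusted p = 0.198).

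For H3K4me3 in aged group 3, 2 of the 4 peaks rose and 0 fell (14.2% of all peaks higher, median difference 0.85 against −0.02). The Gm45104 peak held 67 to 174 reads (median 88) in young and 136 to 534 (median 248.5) in aged group 3, a difference of 1.41 ± 0.21 (SE, adjusted p = 5.28e-05), with 9 of 10 libraries above every young one. Ceacam19 rose by 0.86 ± 0.31 (adjusted p = 0.0375), a call lost without any of several single libraries. Ceacam9 (0.68 ± 0.30, adjusted p = 0.0888) and Psg17 (0.83 ± 0.41, adjusted p = 0.125) did not pass. In aged groups 1 and 2, 0 of 4 passed in limma, 1 and 1 had an unadjusted p under 0.05, and the backgrounds were 0.00387% and 0.205% higher (0.217% in either direction for aged group 2 and 30.7% for aged group 3). With the score as a covariate 0 of 4 passed in aged group 3.

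On its other side the stretch ends at a peak that the tables assign to no gene, seen for both marks and singled out after its values were seen (H3K27ac chr7:17539154-17541409, H3K4me3 chr7:17539150-17541083). It was nearly empty in young, with 0 or 1 H3K27ac reads and 0 or 1 H3K4me3 reads in each young library. In aged group 3 it held 0 to 13 H3K27ac reads (median 9) and 5 to 19 H3K4me3 reads (median 13.5). H3K27ac was higher by 2.88 ± 0.50 (SE, adjusted p = 0.00108), with 8 of 10 libraries above every young one. H3K4me3 was higher by 3.77 ± 0.39 (adjusted p = 2.38e-07), with 10 of 10 above, and already by 2.48 ± 0.44 in aged group 2 (adjusted p = 0.00852). The counts were low at every age, and with the score as a covariate the H3K27ac difference was 1.20 (adjusted p = 0.423) and the H3K4me3 difference 3.11 ± 0.49 (SE, adjusted p = 0.000739), so that only the H3K4me3 call passed in that fit.

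**Figure D5:**
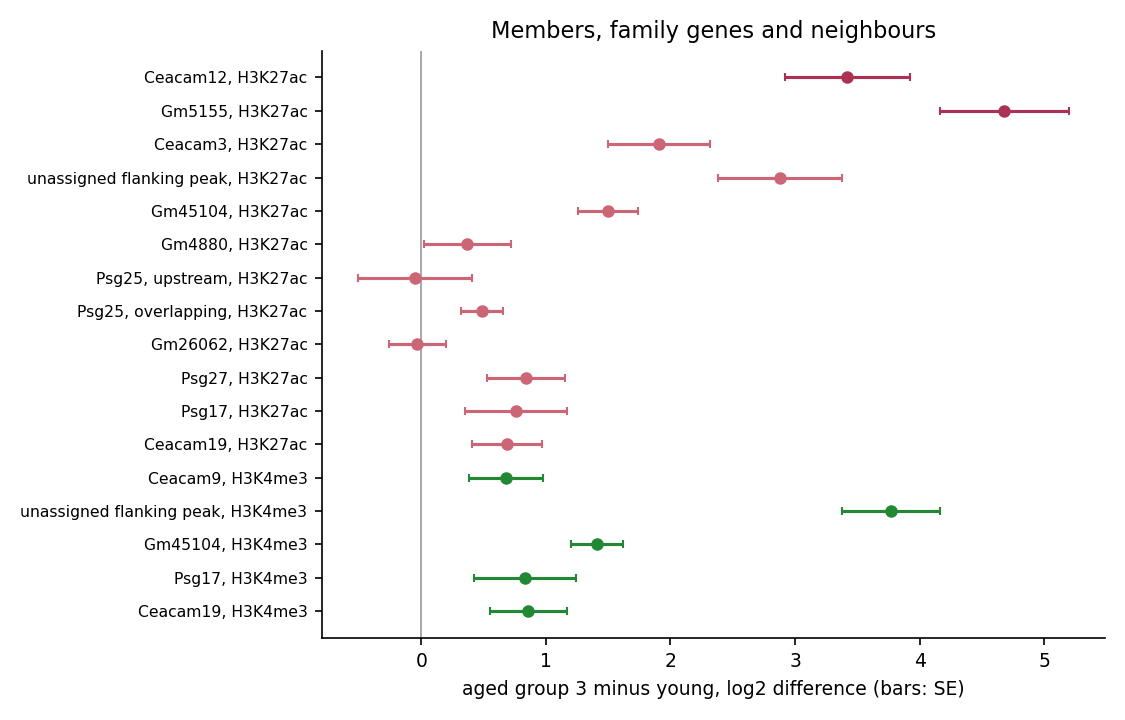
Aged group 3 minus young (log2 difference, bars are SE) at the Ceacam12 and Gm5155 peaks, which were picked for this difference, and at the family and neighbour peaks for H3K27ac and H3K4me3. The members stand at 3.42 and 4.68, the unassigned flanking peak at 2.88 and 3.77 for the marks, and the family and neighbour peaks between −0.05 and 1.91.

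The peaks whose H3K27ac varied most like the members over the 27 libraries are given as a description, since all peaks share the libraries, their depth and their tissue make-up. By plan, 1 peak a gene was taken, and members and genes with predicted or clone names were left out. Peaks whose highest group mean was below the lower quartile of peaks were left out too. For Ceacam12 the 8 genes with the highest Pearson r under these limits were Ppp1r9a, Abhd12, Zfp827, Unc5cl, Ide, Gng12, Slc30a7 and Slc7a7, with r from 0.83 to 0.78 (n = 27). Gm5155 had r = 0.77 with Ceacam12, in place 24 among all peaks, and Ceacam12 was in place 1664 among the peaks most like Gm5155. For Gm5155 the 8 genes were Fut9, Btg1, Mid1, Plekha2, Foxc1, Hsf2bp, Aspa and Nedd9, with r from 0.93 to 0.91, a list added after the data were seen. The median r over all peaks was −0.06 for Ceacam12 and −0.09 for Gm5155.

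Within the 10 libraries of aged group 3, the genes most like Ceacam12 were Garem1, Kank1, Dph6, Capn15, Il1r2, Tpd52l1, Lpgat1 and Pax8 (r from 0.99 to 0.97), with Gm5155 at 0.89 in place 1134. Those most like Gm5155 were Zan, Ppp2r2b, Usp25, Adgrg1, Tmtc2, Gdf15, Exoc3l4 and Uox (r = 0.99), with Ceacam12 in place 3359. Neither member was among the 8 closest of the other, over all libraries or in aged group 3. None of the 8 genes nearest to Ceacam12 over all libraries was among the 8 nearest in aged group 3, and the named peaks were far less empty in young than the members, as at Ide, a peptidase that degrades insulin (mean log2 0.72 in young, 1.80 in aged group 3), and Foxc1, a forkhead transcription factor (−0.33 and 2.26).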

How the data were processed

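H3K27ac and H3K4me3 were measured by native low-input chromatin immunoprecipitation with sequencing (75-base paired reads), per the labels' protocols. The authors deposited 1 table per mark with log2 RPKM per peak and library. Per the submitters' processing notes, the tools were Bowtie2, deepTools 3.5.1, DESeq2, MACS2 2.2.9.1, ChIPseeker 1.34.1 and DiffBind 3.8.0 on GRCm38; what each was used for is not given in the sources used here. Peaks form 1 common set per mark, with low peaks kept in libraries without reads.

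RPKM steps gave whole reads in 100% of values within 0.05, and a peak without reads holds the value of 0.9 reads. Values were quantile-normalized per mark. limma 3.58.1 (R 4.3.3) with an eBayes trend was fitted with 4 group means over 27 libraries and 54354 H3K27ac or 25827 H3K4me3 peaks of the numbered chromosomes and X, with Benjamini-Hochberg adjustment at 0.05; the fit was tested on simulated data. Permutation tests used 100000 resamples for 10 animals and were exact below that. Marker peaks lay within 1000 bases of a RefSeq start.

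Members, lists and tests were chosen with earlier results of these data known. Named genes were the members, family genes with a peak, genes within 500 kb of the Ceacam12 peak, the 8 most alike and, of the oestrogen list, the 4 with the smallest p. Planned H3K4me3 tests at the members were not run, since no H3K4me3 peak carries their names. Groups and replicates follow the labels, which do not call same-numbered mice a pair. 1 H3K4me3 column with an incomplete code was matched to its young animal by mark, age and mouse number. Replicates are separate mice, and with few reads at a peak the counting error is large.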

Additional observations from a re-analysis of the deposited data

Results flagged for a closer look

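No value of the Ceacam12 or Gm5155 peaks stood apart from its group by Dixon's gap test. Of 68 groups of values tested at the members, family and neighbour peaks, 3 did, about what chance gives at 1 in 20.

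At the H3K4me3 peak of Ceacam9, young replicate 5 stood highest at a normalized log2 RPKM of 2.18 (42 reads), against 0.46 to 1.17 in the other young libraries. Without it the aged group 3 difference was 0.87 (adjusted p = 0.03) rather than 0.68 (adjusted p = 0.0888).

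At the unassigned H3K4me3 peak that flanks the stretch (start 17539150), aged group 1 replicate 3 stood highest at −2.09 (24 reads), against −4.54 to −4.45. That library held 48290000 reads, the most of all. At the same peak, aged group 2 replicate 1 stood lowest at −4.43 (0 reads), against −1.76 to −0.76, in the shallowest H3K4me3 library (6835000 reads). The part of depth in these values was not tested.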

How the results depend on the processing

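The member differences from young, for which the peaks were picked, kept their direction under all alternatives run. They moved by less than the SD within groups (1.11 for Ceacam12, 1.15 for Gm5155), except in aged group 3 when the epithelium-stroma score of each library entered the fit. There Gm5155 went from 4.68 to 2.87, and Ceacam12 went from 3.42 to 2.31, a move about as large as the Ceacam12 SD. Leaving out each aged group 1 library gave 2.36 to 2.88 for Ceacam12 and 2.80 to 3.48 for Gm5155 in that group. Young libraries were not left out in turn for the members. Pearson's r of the 5 relations within aged group 3 passed the threshold with the values as deposited, with 2 reads added and without each animal in turn (0.85 to 0.98), but not among the 7 animals with a score above 0.5, after adjustment, nor by Spearman's rho for Ceacam12 and the H3K27ac score (permutation p = 0.0541). The count of risen family and neighbour peaks in aged group 3 was 4 for H3K27ac and 2 for H3K4me3. It was 2 and 1 when the code digit entered as a factor, 2 and 1 when the series of mouse numbers did, 2 and 1 without the libraries of code digit 6, and 0 and 0 with the score in the fit. Leaving out 1 library gave 2 to 5 for H3K27ac and 1 to 3 for H3K4me3. Both Psg25 and Psg27 lost their H3K27ac calls without young replicate 2, 3, 6 or 7 or aged group 3 replicate 2, 5, 6, 7, 8 or 9, with the count at 2. Psg25 alone lost its call without young replicate 1 (adjusted p = 0.0878) and without the eBayes trend (adjusted p = 0.0514), and Psg27 alone without young replicate 5 (adjusted p = 0.0545) and with the replicate block (adjusted p = 0.05). The H3K4me3 call of Ceacam19 was lost without young replicate 1, 3, 6 or 7 or aged group 3 replicate 1, 2, 6, 7, 8 or 9, with the count at 1. Calls were gained without aged group 3 replicate 10 at Psg17 (H3K27ac 1.04, adjusted p = 0.0199; H3K4me3 1.05, adjusted p = 0.0289), at Ceacam19 for H3K27ac with median centring, with the values as deposited, or without young replicate 5 or aged group 3 replicate 3 or 4 (0.70 to 0.84, adjusted p = 0.0141 to 0.033), and at Ceacam9 for H3K4me3 with median centring or without young replicate 5 or aged group 3 replicate 4 (0.80 to 0.87, adjusted p = 0.0233 to 0.0369). Gm45104 and Ceacam3 kept their calls in these fits other than the score covariate.

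Reversed values, all near 0 or unpassed, were those with the score as a covariate: for H3K4me3 Ceacam9 −0.11, Psg17 −0.15 and Ceacam19 −0.02, and for H3K27ac Gm4880 −0.72, Psg25 −0.09, Psg27 −0.03, Psg17 −0.72 and Ceacam19 −0.01. Gm26062 was 0.07 with median centring and −0.20 to 0.06 when each library was left out. The upstream Psg25 peak was 0.17 with the code digit as a factor and −0.39 to 0.12 when each library was left out. The cause was not tested.

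With the replicate number as a block, 3 H3K27ac and 1 H3K4me3 peaks rose. Few same-numbered libraries deviated together (1 of 7 numbers with r over 0.1 for H3K4me3, 2 of 7 for H3K27ac). The r ran from −0.22 to 0.20 for H3K4me3 and from −0.30 to 0.27 for H3K27ac. With so few numbers this check cannot decide whether the numbers mark pairs. The alternatives of the planned H3K4me3 tests at the members were not run, since those tests had no peak. With 0 to 15 reads in young libraries, the size of each fold change is uncertain, and the part of depth in it was not tested.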
